A study of Sus scrofa with 6 samples.

Results

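The small leucine-rich proteoglycans examined here are OGN, DCN, LUM, BGN, FMOD, PRELP, ASPN, OMD and PODN, 9 genes chosen by name, of which 8 have a row under their own symbol in a table of 13288 genes. RNA was sequenced from ventricular tissue of 6 male Tibetan minipigs, 3 with sham surgery (sham group) and 3 with descending aortic constriction (DAC group). The constriction loads the left ventricle with pressure, and the study used it to model heart failure in which the ejection fraction is kept. All animals were operated on, each column of the table holds 1 minipig, and the labels do not say which ventricle each piece came from. The values are FPKM, a level scaled both to transcript length and to the total mapped in that sample, and samples are named sham replicates 1 to 3 and DAC replicates 4 to 6.

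These proteins are secreted mainly by fibroblasts and other connective tissue cells. Each has a core of leucine-rich repeats that binds collagen, and several carry chondroitin, dermatan or keratan sulfate chains. They set the diameter and spacing of collagen fibrils, and some also bind growth factors such as TGF-β or, once released from the matrix, signal through innate immune receptors. In bulk tissue, a change in the number of cells that make a transcript and a change in RNA per cell cannot be told apart.

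The sum of FPKM was between 281377 and 308771 per sample, and the read depth is unknown. The tissue label was matched by its markers: 9 cardiomyocyte genes together held between 14695 and 17979 FPKM. DAC replicate 5 stood apart in one respect, since 13 mitochondrially encoded genes held 32.8% of its summed FPKM, against 24.0% to 25.3% in the sham samples and 27.1% to 27.2% in the other DAC samples. Without this sample 5 members in place of 4 were called higher, as described for PRELP. Over all 11029 genes tested, 470 in place of 358 were called higher without it. The members' log2 fold changes were then 0.87 for OGN, 0.67 for LUM, 0.72 for BGN and 1.22 for FMOD.

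For the comparison, log2(FPKM + 1) was fitted with limma's moderated test over the 11029 genes that reached 1 FPKM in 3 or more samples. A gene was called at an unadjusted P under 0.05, the threshold of the study, and no gene had a Benjamini-Hochberg adjusted P under 0.05 (smallest 0.106). The samples are separate minipigs, so that P values set the group difference against a spread between animals. For each gene, limma's moderation draws this spread toward the trend over all genes tested. Fold changes on this scale understate the change of low genes. Of all genes tested, 3.25% were called higher in the DAC group, 5.27% were called lower and 8.51% were called in either direction. These were 358 genes higher and 581 lower, and 500 higher and 407 lower when mitochondrially encoded genes were left out. All 8 members with a row were tested, and each had at least 1 FPKM in every sample. Of these 8, 4 were called higher (OGN, LUM, BGN and FMOD) and 0 were called lower. The median log2 fold change of the 8 members was 0.52, against -0.016 over all genes tested. The DAC samples all lay above the sham samples in 3 of the 8 (OGN, LUM and BGN), while 6.01% of all genes tested had groups apart in this direction.

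**Figure D1:**
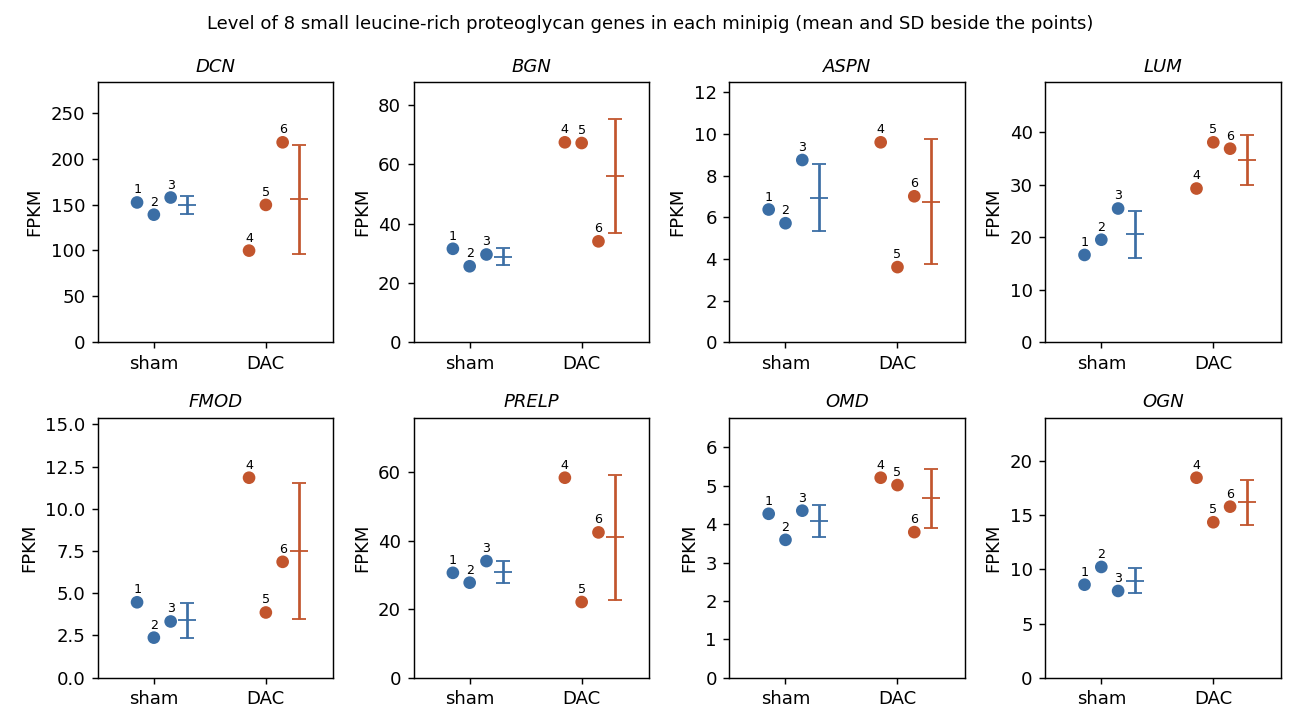
FPKM (vertical axis, from 0) of the 8 members in each sham minipig (blue, replicates 1 to 3) and DAC minipig (orange, replicates 4 to 6), with the group mean and SD (n = 3) beside the points. OGN, LUM and BGN had every DAC minipig above every sham minipig, while the DAC points of DCN, PRELP and ASPN lay on both sides of the sham points.

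OGN encodes osteoglycin, also called mimecan, a keratan sulfate proteoglycan of fibrous matrix. It lies at chr3:42116531-42135817 on the minus strand of susScr11 (ENSSSCG00000034607). OGN was at 8.58, 10.2 and 8.01 FPKM in sham replicates 1 to 3 and at 18.5, 14.4 and 15.8 FPKM in DAC replicates 4 to 6. The lowest DAC value was above the highest sham value, and the coefficient of variation was 12.9% in both groups. OGN was higher in the DAC group by 0.79 on the log2 scale (SE 0.14, 95% interval 0.47 to 1.11, limma adjusted P = 0.335). OGN was called under each of the 13 alternative settings tried, with log2 fold changes from 0.70 to 0.88 and adjusted P from 0.252 to 0.774.

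The class of LUM, FMOD, PRELP and OMD holds the keratan sulfate members that bind fibrillar collagen, together with PRELP, whose basic N-terminus binds heparan sulfate. LUM, lumican (chr5:91748885-91757615, plus strand, ENSSSCG00000000916), was at 16.6, 19.5 and 25.5 FPKM in the sham samples and at 29.3, 38.1 and 36.9 FPKM in the DAC samples. The groups did not overlap, although the highest sham and the lowest DAC sample were close. On the log2 scale LUM was higher by 0.74 (SE 0.18, 95% interval 0.32 to 1.16, limma adjusted P = 0.482). It was called under all 13 alternatives, from 0.61 to 0.90, with adjusted P from 0.399 to 0.844.

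FMOD, fibromodulin (chr9:64062999-64073859, minus strand, ENSSSCG00000015270), was at 4.46, 2.37 and 3.33 FPKM in the sham samples and at 11.8, 3.86 and 6.86 FPKM in the DAC samples. DAC replicate 4 was far above the rest, and DAC replicate 5 lay within the sham range. For FMOD the log2 difference was 0.87 (SE 0.35, 95% interval 0.049 to 1.70, limma adjusted P = 0.584). Its call did not hold when sham replicate 2 (0.70), sham replicate 3 (0.88), DAC replicate 4 (0.52) or DAC replicate 6 (0.88) was left out, nor without limma's moderation of the variances. Over the 12 alternatives in which FMOD was tested, its adjusted P was from 0.420 to 0.885.

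PRELP (chr9:64190982-64207006, plus strand, ENSSSCG00000015271) was at 30.6, 27.8 and 34.1 FPKM in the sham samples and at 58.4, 22.1 and 42.4 FPKM in the DAC samples. DAC replicates 4 and 6 were above all sham samples and DAC replicate 5 was below them. PRELP was not called, with a log2 fold change of 0.30 and a 95% interval from -0.45 to 1.05. Without DAC replicate 5 it was called at 0.68 (limma adjusted P = 0.487), and without DAC replicate 4 the log2 fold change was -0.0013. OMD, osteomodulin (chr3:42142658-42154583, minus strand, ENSSSCG00000008073), varied least: 4.27, 3.59 and 4.35 FPKM in the sham samples and 5.21, 5.02 and 3.79 FPKM in the DAC samples. The groups overlapped through DAC replicate 6, and the 95% interval of the log2 fold change of OMD was from -0.17 to 0.48 around 0.16. OMD was not called with any sample left out, at 0.086 without sham replicate 2 or DAC replicate 4 and at 0.27 without DAC replicate 6.

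DCN, BGN and ASPN form the decorin class. BGN, biglycan, carries chondroitin or dermatan sulfate chains and in soluble form is a ligand of TLR2 and TLR4. It lies at chrX:124282224-124295448 on the plus strand (ENSSSCG00000012766). BGN was at 31.5, 25.6 and 29.6 FPKM in the sham samples and at 67.5, 67.2 and 34.0 FPKM in the DAC samples. DAC replicates 4 and 5 were far above the sham samples, while DAC replicate 6 was just above the highest of them. BGN was higher by 0.88 on the log2 scale (SE 0.26, 95% interval 0.25 to 1.497, limma adjusted P = 0.508). BGN was called under 12 of 13 alternatives, the exception being the fit without moderation of the variances, and its limma adjusted P was from 0.143 to 0.883 over them.

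DCN, decorin, binds collagen I and TGF-β and was the most abundant member in every sample. It lies at chr5:91678608-91714235 on the plus strand (ENSSSCG00000000915). DCN was at 152, 139 and 158 FPKM in the sham samples and at 99.8, 150 and 218 FPKM in the DAC samples. Of the DAC minipigs, replicate 4 was below all sham samples, replicate 5 was among them and replicate 6 was above them. The group means of DCN were 150 ± 9.62 FPKM (SD, n = 3) and 156 ± 59.2 FPKM (SD, n = 3), and the 95% interval of the log2 fold change was from -0.62 to 0.60 around -0.012. Its direction depended on the DAC samples: leaving out DAC replicate 4 gave 0.27 and leaving out DAC replicate 6 gave -0.29, neither called. It was also above 0 after median scaling (0.013), after quantile normalization (0.095), with mitochondrially encoded genes left out (0.033) and on leaving out sham replicate 1 (0.0020) or 3 (0.027). ASPN, asporin, has a stretch of aspartates and binds collagen and TGF-β. ASPN (chr3:42165553-42192813, minus strand, ENSSSCG00000008072) was at 6.38, 5.72 and 8.75 FPKM in the sham samples and at 9.60, 3.61 and 7.01 FPKM in the DAC samples. DAC replicate 4 was the highest and DAC replicate 5 the lowest of all 6 samples. ASPN was not called, with a log2 fold change of -0.10 and a 95% interval from -0.82 to 0.62. Its direction and size depended on single samples: leaving out DAC replicate 5 gave 0.23, sham replicate 3 gave 0.056, sham replicate 2 gave -0.21 and DAC replicate 4 gave -0.37, none of them called.

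No row had the symbol PODN, podocan, the ninth gene. The identifier that a gene name table pairs with PODN (ENSSSCG00000027114) is labelled SCP2 in the deposited table, and its row runs over 325 kb, from 159155254 to 159480588 on chromosome 6. RefSeq (Sscrofa11.1) places PODN from 159155251 to 159179456 and SCP2 from 159191045 to 159314985 on that chromosome. The row was at 16.4 to 21.0 FPKM in the 6 samples and was not called, and a level of PODN cannot be read from it.

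**Figure D2:**
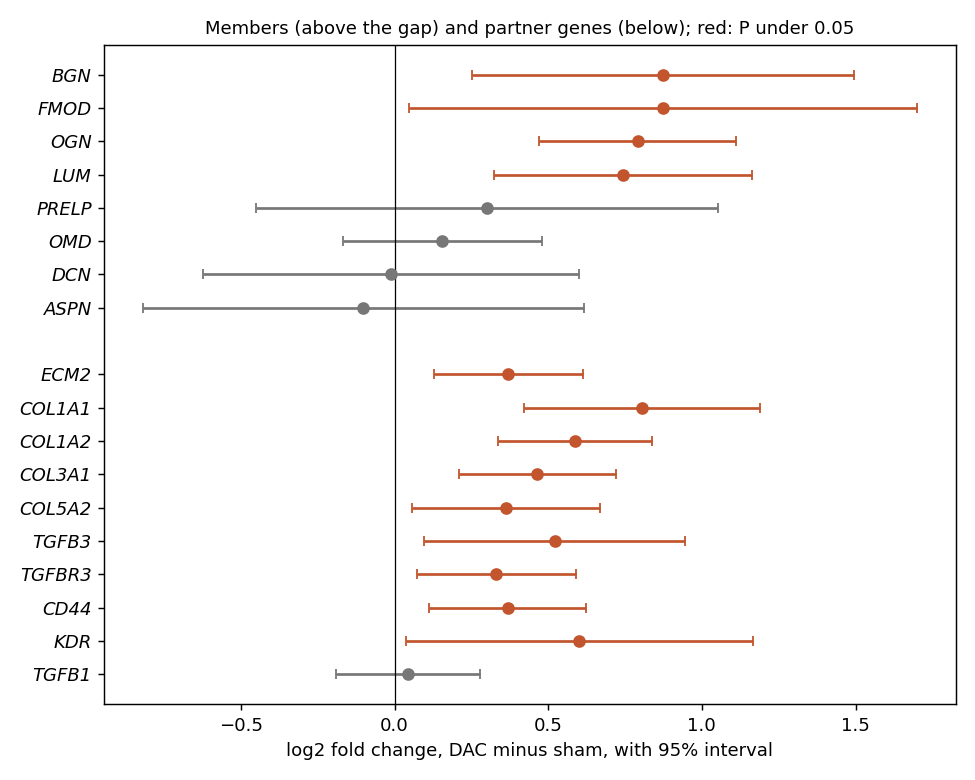
Log2 fold change, DAC minus sham, with its 95% interval from limma for the 8 members (above the gap) and some partner genes (below). Points are red where P was under 0.05. Below the gap are ECM2, COL1A1, COL1A2, COL3A1, COL5A2, TGFB3, TGFBR3, CD44, KDR and TGFB1. Not drawn are B3GAT3, SPOCK2 and SDC3, which were called lower, and CHST2 and GPC4, which were called higher. The intervals of BGN, FMOD, OGN and LUM lie above 0, while those of PRELP, OMD, DCN and ASPN include it.

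The spread between minipigs was compared between the groups as a description, and a difference in spread was not tested. Each SD rests on few minipigs, and all members were measured in the same minipigs. The members are therefore not independent of each other in this count. On the log2 scale the SD was larger in the DAC than in the sham group for 7 of the 8 members, all but LUM, and for 58.5% of all genes tested. The median SD of the members was 0.16 in the sham group and 0.56 in the DAC group, while over all genes tested it was 0.14 and 0.17. It was 5.98 times larger in the DAC group for DCN, 4.85 times for PRELP, 3.76 times for BGN, 2.18 times for ASPN and 2.01 times for FMOD. For OGN the SDs were alike, 0.16 and 0.17.

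The members did not follow one order among the DAC minipigs. OGN, FMOD, PRELP and ASPN shared one order, highest in DAC replicate 4, then 6, then 5. Against the sham mean, PRELP was at 0.91, 0.45 and -0.46 on the log2 scale in DAC replicates 4, 6 and 5. ASPN was at 0.43, 0.030 and -0.77, and FMOD was at 1.58, 0.87 and 0.18 in the same samples. DCN ran another way, at -0.58, 0.0019 and 0.54 in replicates 4, 5 and 6. BGN was at 1.20 and 1.19 in replicates 4 and 5 and at 0.23 in replicate 6, so that the minipig with the most DCN had the least BGN of the DAC group. Leaving out the mitochondrially encoded genes and rescaling the rest kept DAC replicate 5 lowest of all samples for PRELP (22.6 FPKM, sham 27.3 to 33.4) and ASPN (3.68 FPKM, sham 5.62 to 8.59).

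**Figure D3:**
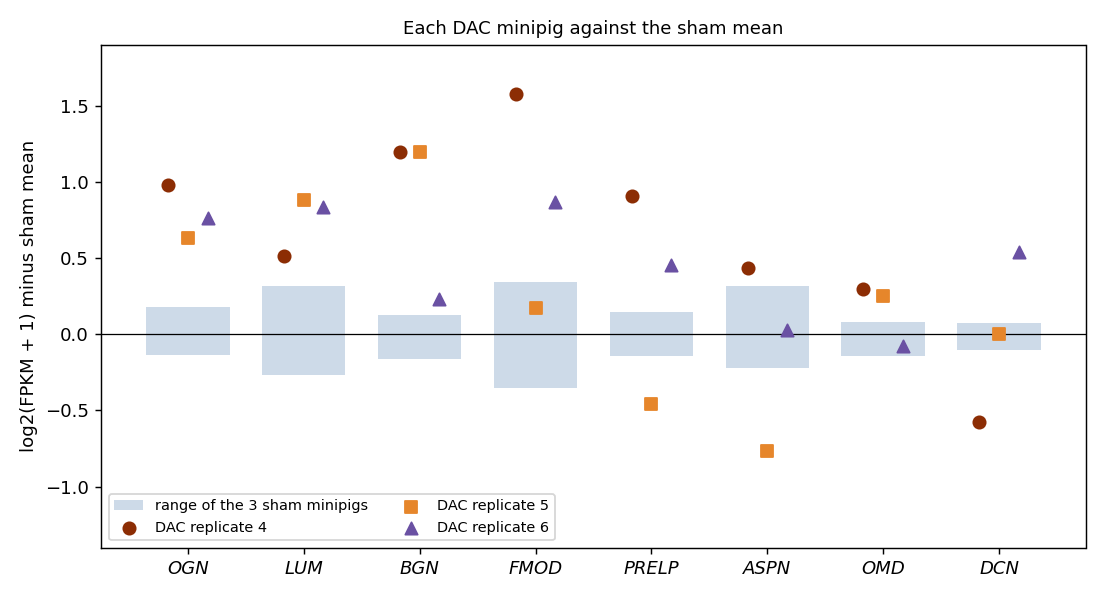
Log2(FPKM + 1) minus the sham mean (vertical axis) of each member in DAC replicates 4 (circles), 5 (squares) and 6 (triangles), with the range of the 3 sham minipigs as blue bands. All DAC points are above the band for OGN, LUM and BGN, and DAC replicate 5 is below it for PRELP (-0.46) and ASPN (-0.77).

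Among the tested genes listed as markers of tendon, valve and cartilage cells, THBS4 followed the order of PRELP in the DAC minipigs and CILP did not. THBS4, thrombospondin 4, was at 30.4 to 41.3 FPKM in the sham samples and at 65.5, 18.0 and 53.2 FPKM in DAC replicates 4, 5 and 6, the order of PRELP. CILP, cartilage intermediate layer protein, was at 4.77 to 8.03 FPKM in the sham samples and at 19.0, 4.34 and 2.16 FPKM in DAC replicates 4, 5 and 6. Only 4 of the 10 listed markers had a row, SCX and CILP2 stayed at or under 1.05 FPKM, and the summed level was 35.4 to 49.7 FPKM in the sham group and 22.6 to 86.1 FPKM in the DAC group. COMP, TNMD, COL2A1 and ACAN had no row. The part of such cells in the values of FMOD, PRELP and ASPN was not tested.

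Compared per length, the order of levels in the sham group was DCN (mean 150 FPKM), PRELP (30.8), BGN (28.9), LUM (20.5), OGN (8.94), ASPN (6.95), OMD (4.07) and FMOD (3.39). DCN stood at the 98.2 percentile of the sham means of all genes tested and FMOD at the 31.6 percentile. The sham ranges overlapped between the neighbours PRELP and BGN, OGN and ASPN, and OMD and FMOD. In the DAC group the order of means was DCN (156 FPKM), BGN (56.2), PRELP (41.0), LUM (34.7), OGN (16.2), FMOD (7.52), ASPN (6.74) and OMD (4.67). There, the neighbours BGN and PRELP, PRELP and LUM, FMOD and ASPN, and ASPN and OMD overlapped.

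The 8 members together held 234 to 271 FPKM in the sham samples and 300 to 365 FPKM in the DAC samples. DCN held 59.8%, 59.4% and 58.1% of this sum in the sham samples and 33.3%, 49.2% and 59.7% in DAC replicates 4, 5 and 6. The share of DCN in DAC replicate 6 was therefore within the sham range. BGN held 10.9% to 12.4% in the sham samples, 22.5% and 22.1% in DAC replicates 4 and 5, and 9.34% in DAC replicate 6. LUM held 6.53% to 9.39% in the sham samples and 9.75% to 12.5% in the DAC samples, the one share of 8 whose groups were apart with DAC higher (exact two-sided permutation P = 0.10, adjusted over the 8 shares 0.533). With 3 minipigs against 3, 0.10 is the smallest P such a test can give. The groups of LUM overlapped when DCN was left out of the sum.

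**Figure D4:**
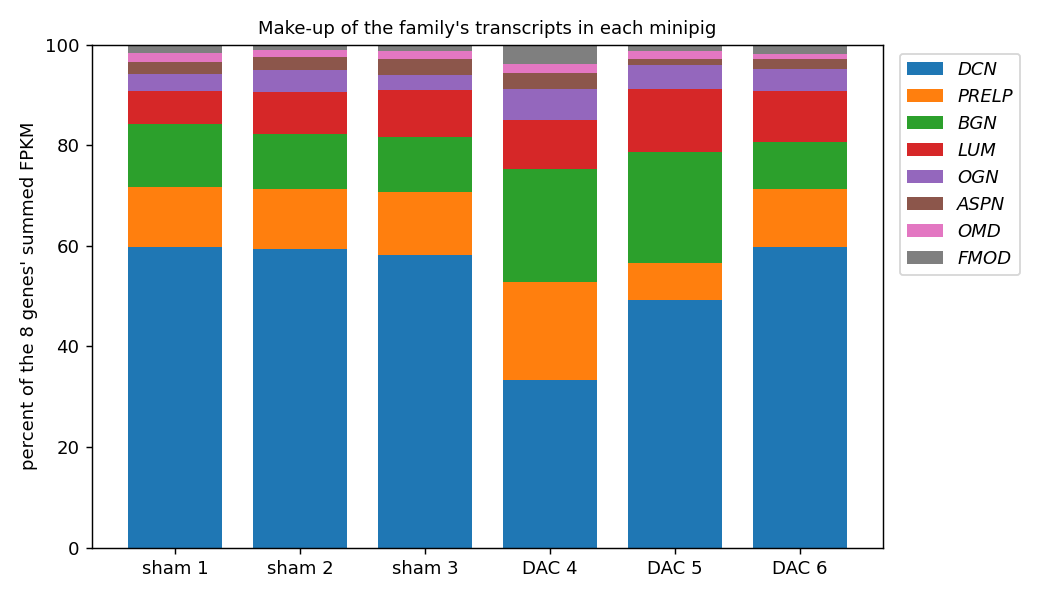
Percent of the summed FPKM of the 8 members (vertical axis) held by each gene in the 3 sham and 3 DAC minipigs. The sham bars are alike, with DCN from 58.1% to 59.8%, and the DAC bars differ from each other, with DCN from 33.3% to 59.7%.

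Ratios between members of a sample were taken as differences of log2(FPKM + 1), and the added 1 weighs most on the low members. Among the 7 log2 ratios to DCN, the one of LUM, its neighbour on the chromosome, had the groups apart. It was -3.12, -2.77 and -2.58 in the sham samples and -1.74, -1.95 and -2.53 in the DAC samples. The difference was 0.75 (exact two-sided permutation P = 0.10, adjusted over the 7 ratios 0.467). The log2 ratio of BGN to DCN was from -2.39 to -2.24 in the sham samples and was -0.56, -1.14 and -2.64 in DAC replicates 4, 5 and 6. It was above the sham range in DAC replicates 4 and 5 and below it in DAC replicate 6 (exact two-sided permutation P = 0.40, adjusted 0.700). The number of ratios with the groups apart was from 1 to 4 with 1 sample left out in turn, the highest without DAC replicate 6. There were 2 when sham replicate 1, sham replicate 2 or DAC replicate 5 was the one left out.

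The genes lie in groups on the genome. OGN, OMD, ASPN and ECM2 follow each other on the minus strand of chromosome 3 with gaps of 6.84, 11.0 and 10.3 kb, and DCN, LUM and KERA follow on the plus strand of chromosome 5 with gaps of 34.6 and 38.7 kb. FMOD and PRELP lie 117 kb apart on chromosome 9, on opposite strands. Neighbours did not share one result: OGN and ECM2 were called and OMD and ASPN between them were not, and LUM was called beside DCN. These differences between neighbours were not tested, other than LUM against DCN. CENPP, on the plus strand, spans OGN, OMD and ASPN, and was at 0.783 to 1.86 FPKM without a call. SLC6A8 overlaps the end of BGN by 593 bases on the same strand, and was at 30.6 to 47.2 FPKM with a log2 fold change of -0.20 that was not called. How reads in shared stretches were assigned, and whether strand was used, is not given in the sources used here.

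Of 9 other genes of the family, 7 had a row and 2 were tested. ECM2, a leucine-rich matrix protein that is a relative of the decorin class, was at 11.6, 12.5 and 12.0 FPKM in the sham samples and at 14.5, 16.6 and 16.5 FPKM in the DAC samples. All DAC samples were above all sham samples, and the log2 difference was 0.37 (SE 0.10, limma adjusted P = 0.500). TSKU, tsukushi, was at 0.741 to 1.53 FPKM in the sham and 0.577 to 1.32 FPKM in the DAC samples and was not called. KERA, keratocan of the cornea, CHAD, CHADL, NYX and PODNL1 were at or under 1.26 FPKM in every sample, and EPYC and OPTC had no row.

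Among the enzymes that build the chains, 1 of 19 tested genes for chondroitin and dermatan sulfate was called lower and 0 were called higher. Over all genes tested, 5.27% were called lower and 3.25% higher, and 1 of 19 lower is near the first share. The gene called lower was B3GAT3, which completes the linker to the core protein. It was at 15.2, 17.1 and 18.4 FPKM in the sham and 14.4, 10.9 and 13.9 FPKM in the DAC samples. B3GAT3 had a log2 fold change of -0.35, and its call was lost on leaving out sham replicate 2 (-0.34), sham replicate 3 (-0.29) or DAC replicate 5 (-0.24), after quantile normalization (-0.30), with mitochondrially encoded genes left out (-0.31) and without moderation of the variances. The median log2 fold change of these 19 genes was -0.0078. Of 5 tested genes for keratan sulfate, CHST2, a sulfotransferase, was called higher at a log2 fold change of 0.41, from 1.69, 1.78 and 2.26 FPKM to 3.33, 2.23 and 3.05 FPKM. Its groups overlapped, and the call was lost without sham replicate 1 (0.35), sham replicate 2 (0.38), DAC replicate 4 (0.32) or DAC replicate 6 (0.37), and without moderation of the variances. For proteases that process or degrade the core proteins, limma called 0 of 8 tested genes in either direction, against 8.51% of all genes tested. BMP1, which removes the propeptide of BGN and OGN, was at 6.05 to 14.3 FPKM in the sham and 6.04 to 9.61 FPKM in the DAC samples.

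Of 11 tested collagens whose fibrils the members bind, 4 were called higher and 0 lower, against 3.25% and 5.27% of all genes tested. The median log2 fold change of the 11 collagens was 0.27. COL1A1, a chain of collagen I, was at 102, 78.5 and 102 FPKM in the sham and 189, 170 and 137 FPKM in the DAC samples, a log2 fold change of 0.81. COL1A2 (0.59), COL3A1 (0.46) and COL5A2 (0.36) also had the groups apart. COL5A2 lost its call without sham replicate 1 (0.31), sham replicate 2 (0.29), DAC replicate 4 (0.35) or DAC replicate 6 (0.35). Set against the summed FPKM of COL1A1, COL1A2 and COL3A1, a quantity chosen after the values were seen and not tested, DCN was at 42.3 to 45.6 per 100 collagen FPKM in the sham samples. It was at 18.5, 29.8 and 43.5 in DAC replicates 4, 5 and 6. The collagen sum itself was at 305 to 360 FPKM in the sham and 501 to 539 FPKM in the DAC samples, without overlap. The FPKM of OMD overlapped between the groups, with means of 4.07 in the sham and 4.67 in the DAC group. Per 100 collagen FPKM, OMD was at 1.18 to 1.22 in the sham and at 0.757 to 0.998 in the DAC samples. These did not overlap, but a lower value on this measure is not a lower level of OMD. OGN, at 2.25 to 3.36 in the sham and 2.86 to 3.43 in the DAC samples, and LUM, at 4.62 to 7.17 and 5.43 to 7.58, overlapped on this measure. BGN was at 8.33 to 8.76 in the sham samples and at 12.5, 13.4 and 6.80 in DAC replicates 4, 5 and 6, above the sham range in the first pair and below it in the last. FMOD, PRELP and ASPN also overlapped between the groups.

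Among growth factors and receptors the family binds or signals through, 4 of 20 tested genes were called higher and 0 lower. The shares over all genes tested were 3.25% and 5.27%, and the median log2 fold change of the 20 genes was 0.11. CD44, a hyaluronan receptor, had a log2 fold change of 0.37, from 4.46, 5.25 and 4.55 FPKM to 5.94, 6.77 and 6.56 FPKM. The other calls were TGFB3 (0.52), the coreceptor TGFBR3 (0.33) and the VEGF receptor KDR (0.60), of which KDR overlapped between the groups. TGFB3 lost its call without sham replicate 3 (0.42), DAC replicate 4 (0.39) or DAC replicate 6 (0.48). TGFBR3 lost it without sham replicate 1 (0.31), sham replicate 3 (0.32) or DAC replicate 4 (0.26), and KDR without sham replicate 1 (0.57), sham replicate 3 (0.43), DAC replicate 4 (0.64) or DAC replicate 6 (0.41). TGFB3 and KDR also lost it without moderation of the variances. TGFB1, the ligand that DCN, BGN and FMOD bind, was at 26.7, 29.3 and 27.7 FPKM in the sham and 30.0, 26.9 and 29.5 FPKM in the DAC samples, with a 95% interval of the log2 fold change from -0.19 to 0.28. TLR2 and TLR4 were at or under 1.13 FPKM in every sample and were not tested.

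Markers of fibroblasts, a main source of the family, were examined beside these counts. Of 15 tested, 4 were called higher and 0 lower, against 3.25% and 5.27% of all genes tested. Of the 4, 3 were the collagens above and the other was the intermediate filament gene VIM (log2 fold change 0.72). The summed level was 731 to 812 FPKM in the sham and 963 to 1078 FPKM in the DAC samples. Without these 4 genes, the other 11 markers held 349 to 382 FPKM in the sham samples. They held 414, 314 and 467 FPKM in DAC replicates 4, 5 and 6, which overlapped with the sham samples. This sum was taken after the values were seen and leaves markers out because they were called. Its overlap therefore cannot show that fibroblast markers were alike in the groups. GSN alone held 158 to 190 FPKM in the sham samples and 218, 154 and 201 FPKM in DAC replicates 4, 5 and 6. The fibroblast markers PDGFRA (8.74 to 11.1 against 10.5 to 12.6 FPKM) and TCF21 (5.35 to 6.95 against 4.44 to 7.82 FPKM) were not called. Of 9 smooth muscle and pericyte markers 1 was called higher, and summed levels were 180 to 209 FPKM in the sham and 207 to 226 FPKM in the DAC samples. The part of cell number in the members' values was not tested.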

How the data were processed

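Total RNA from ventricular tissue of 3 sham and 3 DAC minipigs was sequenced on an Illumina HiSeq instrument with paired ends. The authors deposited 1 table of FPKM per gene and sample. The submitters' processing notes name HISAT2 and the build susScr11. The quantification program and versions are not given in the sources used here. No whole-read steps were found (at most 3 of at least 1758 low genes shared a ratio between samples), so depth is unknown. The highest value of every gene in the table was at least 0.500 FPKM.

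Genes that reached 1 FPKM in 3 or more of the 6 samples were tested on log2(FPKM + 1) with limma 3.58.1 in R 4.3.3, called at an unadjusted P under 0.05, with Benjamini-Hochberg adjusted P beside it. Shares and ratios were tested by exact two-sided permutation. Plots were drawn in Python 3.11.15 with matplotlib 3.10.9. The limma step was tested on simulated data, and the permutation tests and descriptive steps were not.

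The members and gene lists, and the alternative without mitochondrially encoded genes, were chosen with earlier results of these data known. All members were named, with up to 4 called genes of each other list by smallest P, COL1A1, COL3A1, TGFB1, and for members with an SD of at least 0.3 the 3 genes nearest in pattern. The collagen ratio, the marker values and genes listed as not called were chosen after the values were seen. Alternatives were other filters, a pseudocount of 0.1, other scalings, no variance moderation and each sample left out.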

Additional observations from a re-analysis of the deposited data

How the results depend on the processing

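The 4 calls among the members became 2 without moderation of the variances (BGN and FMOD were lost), and 3 to 5 with 1 sample left out in turn. With a minimum of 5 FPKM, 165 of 6271 tested genes were called higher, against 358 of 11029 in the main fit. Of the members, 3 of 6 tested were called higher under this filter. With 1 sample left out, 359 to 674 of all 11029 genes were called lower. The 78 tested partner genes had 11 calls higher and 3 lower, against 3.25% and 5.27% of all genes tested. With no filter 95 partner genes were tested, of which 13 were called higher and 5 lower. With 1 sample left out, 7 to 18 of the 78 were higher. There were 18 without DAC replicate 5, and 7 without sham replicate 1, DAC replicate 4 or DAC replicate 6. Those called lower numbered 2 to 6, the 6 being without DAC replicate 6. Ratios to DCN with the groups apart numbered 1 to 4 with 1 sample left out, and shares 1 to 3. No share was apart (0) when DCN was left out of the sum. The causes were not tested. For the 31 genes followed across alternatives, 346 values kept their side of the threshold, 49 lost the call and 1 gained it (PRELP). The sign turned in 0 called values and in 9 uncalled ones, 6 of DCN, 2 of ASPN and 1 of PRELP. No paired analysis was possible because the groups share no replicate number. With 3 minipigs a group and depth unknown, small differences of low genes such as OMD cannot be resolved. The difference of FMOD was larger (log2 fold change 0.87), but its call depended on single samples.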

Other observations

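A further list held matrix and cell surface proteoglycans outside the family and the adhesion molecule BCAM. Of its 13 tested genes, 1 was called higher and 2 were called lower, against 3.25% and 5.27% of all genes tested. GPC4, a glypican anchored to the cell membrane, was at 6.73, 7.51 and 7.82 FPKM in the sham samples and at 13.7, 10.8 and 12.8 FPKM in the DAC samples, a log2 fold change of 0.68. SPOCK2, a testican of the matrix, was at 6.58, 16.8 and 14.0 FPKM in the sham samples and at 5.70, 4.86 and 2.10 FPKM in the DAC samples, a log2 fold change of -1.35, and lost its call without moderation of the variances. SDC3, a syndecan, was at 7.86, 10.9 and 11.4 FPKM in the sham samples and at 7.17, 5.36 and 6.68 FPKM in the DAC samples, a log2 fold change of -0.57. In all 3 genes the groups did not overlap.

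The genes nearest in pattern were found by the root mean square difference of centred log2(FPKM + 1) over the same 6 samples, as a description. Because these genes were chosen by likeness to a member, an order of samples shared with that member follows from the choice. Nearest to OGN were CYSLTR2 (0.10), GPC4 (0.13) and PLOD2 (0.15), a lysyl hydroxylase of collagen. For LUM they were FGD6 (0.14), SRGAP1 (0.16) and PTAFR (0.17). For BGN they were MAPRE1 (0.18), COL1A1 (0.21) and FMO2 (0.24), all lowest in DAC replicate 6 within the DAC group. CCL2 (0.23), ANGPTL2 (0.24) and SERPINF1 (0.24) were nearest to FMOD, and SPON2 (0.14), ATF3 (0.15) and SERPINF1 (0.16) to PRELP. All of these 5 genes were lowest in DAC replicate 5 within the DAC group. DAPK3 (0.13), PDIA2 (0.13) and FAM126A (0.15) were nearest to ASPN, and ATPAF2 (0.063), FADS3 (0.069) and H2AC11 (0.091) to DCN. OMD varied too little for this search.

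Of the other marker lists, 1 of 9 cardiomyocyte genes and 1 of 6 leukocyte genes were called lower. Among 8 endothelial genes 2 were called higher and 1 lower, and 0 of 2 adipocyte and 0 of 3 Schwann cell genes were called. Over all genes tested, 3.25% were called higher and 5.27% lower. The epicardial genes WT1 (log2 fold change -1.23) and TBX18 (0.52) were called in opposite directions, and 7 of the 10 listed epicardial genes had no row.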
